A study of Mus musculus with 8 samples.

Results

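The genes described here are Axl, Mertk, Gas6, Pros1, Mfge8, Timd4 and Elmo1, 7 of the 32227 genes in the tables. They were chosen by name as genes of the TAM receptor system and of efferocytosis, the engulfment of dying cells. Cells from brains were kept with 800 to 44999 UMIs (counted RNA molecules), 250 to 6499 genes and under 5% mitochondrial UMIs. The genes were read in 4 groups of them gated by marker genes. These were 88953 microglia, 3613 macrophages, 3769 monocytes and 2599 non-immune cells, of 119053 cells kept.

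The study profiled CD45+ cells (CD45 is a surface protein of immune cells, carried by microglia too) from brains of male C57Bl/6J mice aged 5 to 6 months by the labels, whose range differs from that in the study's methods, by PIPseq, a droplet method that gives each cell a barcode and each RNA molecule a unique molecular identifier (UMI). Each mouse received 1 intraperitoneal injection of saline or of lipopolysaccharide (LPS, a bacterial cell wall component) at 15000000 EU/kg, and brains were taken at 24 h. The brains were not perfused, so cells of the blood in their vessels can be among those profiled. The study could not tell which non-resident cells lay in the brain tissue itself. The brains were then dissociated with enzymes in the presence of DMSO or of inhibitors of transcription and translation. The 4 groups were saline with DMSO, LPS with DMSO, saline with inhibitors and LPS with inhibitors. Each had 2 libraries from 2 batches, read here as capture days, so that 4 saline libraries stood against 4 LPS libraries.

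Axl and Mertk are receptor tyrosine kinases of the TAM family, named after its members Tyro3, Axl and Mertk. Gas6 and protein S, the product of Pros1, are secreted proteins that bind phosphatidylserine exposed on dying cells at one end and a TAM receptor at the other. Gas6 binds all TAM receptors, and protein S binds Tyro3 and Mertk but not Axl. Mfge8 links phosphatidylserine to integrins, Timd4 (TIM-4) is itself a phosphatidylserine receptor of tissue macrophages, and Elmo1 works with Dock proteins inside the engulfing cell to activate Rac. In the brain, Mertk is known from microglia, and TAM receptors are known both to clear dying cells and to dampen inflammatory signalling.

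The region around the start of each gene is shown for the TAM receptors and their ligands, because they form the receptor and ligand pairs around which the results are ordered. Each sequence runs 5′ to 3′ in the direction of the gene, from 250 bases before to 50 bases after the RefSeq start, on mouse build GRCm38.p6. Capitals mark a match to a searched motif on either strand, here the core GAGGAA of the myeloid factor PU.1 or the GC box GGGCGG. Axl lies at chr7:25788684-25788983 on the minus strand, Mertk at chr2:128698665-128698964 on the plus strand, Gas6 at chr8:13494486-13494785 on the minus strand and Pros1 at chr16:62854057-62854356 on the plus strand.
Axl: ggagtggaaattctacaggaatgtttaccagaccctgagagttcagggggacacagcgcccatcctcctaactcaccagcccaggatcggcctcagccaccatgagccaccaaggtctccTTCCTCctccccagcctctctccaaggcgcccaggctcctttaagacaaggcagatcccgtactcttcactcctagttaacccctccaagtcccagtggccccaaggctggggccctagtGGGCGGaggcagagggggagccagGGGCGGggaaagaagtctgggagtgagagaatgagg
Mertk: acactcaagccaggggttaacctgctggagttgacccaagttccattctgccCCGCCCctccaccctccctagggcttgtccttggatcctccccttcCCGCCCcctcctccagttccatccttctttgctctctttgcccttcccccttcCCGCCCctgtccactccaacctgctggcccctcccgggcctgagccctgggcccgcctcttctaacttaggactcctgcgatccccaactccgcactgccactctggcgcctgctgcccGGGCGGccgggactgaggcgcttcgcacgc
Gas6: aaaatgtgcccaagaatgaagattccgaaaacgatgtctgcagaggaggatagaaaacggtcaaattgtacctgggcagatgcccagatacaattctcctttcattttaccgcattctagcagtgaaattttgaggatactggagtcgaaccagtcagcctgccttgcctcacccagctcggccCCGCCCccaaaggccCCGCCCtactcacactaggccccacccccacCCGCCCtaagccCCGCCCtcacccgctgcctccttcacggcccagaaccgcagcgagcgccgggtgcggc
Pros1: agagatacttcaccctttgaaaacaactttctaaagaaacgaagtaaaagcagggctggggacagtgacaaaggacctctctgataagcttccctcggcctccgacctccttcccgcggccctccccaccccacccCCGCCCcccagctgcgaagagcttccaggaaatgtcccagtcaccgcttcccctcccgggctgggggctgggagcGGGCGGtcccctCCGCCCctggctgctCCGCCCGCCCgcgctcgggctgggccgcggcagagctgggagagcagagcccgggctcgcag

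All 7 genes had a RefSeq start, and Elmo1 had 2. The GC box was found in 6 of the 7 genes, all but Timd4, against 35.7% of 32851 promoters of the same length. GAGGAA was found in Axl, Mfge8 and Elmo1, against 28.3% of promoters. The AP-1 site TGANTCA and the interferon-stimulated response element were found in 0 of the 7, against 7.81% and 3.44% of promoters. An NF-kB site was found in Elmo1 alone, against 8.46%. The 4 sequences printed had a GC content of 58.3% to 66.7%, and the median over all promoters was 52.7%. Among the sequences not printed, Mfge8 had 64.3%, the starts of Elmo1 had 60% and 46%, and Timd4 had 50.7%. These matches describe letters in a window, and binding was not measured.

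Levels below are CPM, the UMIs of the gene scaled to 1000000 UMIs of the class in that library. Values per library are given for replicates 1 and 2 of the DMSO libraries and then of the inhibitor libraries. Fold changes come from edgeR's quasi-likelihood test on summed UMIs with Benjamini-Hochberg adjustment over all genes tested, and a gene was called at an adjusted p under 0.05. They are on the TMM scale, which differed from CPM: the TMM factor of LPS microglia was lower than that of saline microglia by 0.74 on the log2 scale, so a microglial log2 fold change is less negative by that amount than one from library totals. The median fold change of all genes was -0.18 in microglia on the TMM scale and -0.93 with library totals. In macrophages these medians were -0.042 and -0.40. In microglia 7150 genes were called lower and 6055 higher with TMM, against 13558 lower and 2904 higher with library totals.

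Gates were checked against their markers. The microglia list summed to 36218 to 38142 CPM in saline microglia and to 6596 to 7764 CPM in LPS microglia, with no overlap, and the macrophage list to 11475 to 12140 CPM in saline and 4257 to 5228 CPM in LPS macrophages. Both lists were therefore lower with LPS within their own class. Total UMIs per library were 90352359 to 141182123, and 15.5% to 33.7% of them lay in barcodes with 1 to 99 UMIs, taken here as free RNA. Pairs of libraries shared 0 to 25 cell barcodes. Free RNA of the second LPS DMSO library held 498 CPM of the microglial gene P2ry12 against 139.5 to 171 CPM in the other LPS libraries. Marker levels fell with LPS together with most of the genes described here, and the part of this in the results was not tested.

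All 7 genes were lower in LPS macrophages, 6 of 7 were lower in LPS microglia, and 5 of the 6 that could be tested were lower in LPS monocytes. By comparison, 25.6% of all genes tested were called lower and 24.2% higher in macrophages, 35.4% and 30% in microglia, and 18.6% and 17.6% in monocytes. DESeq2 called 7, 5 and 5 of the genes in these classes. With free RNA subtracted, Mfge8 and Timd4 were no longer called in microglia and Mfge8 had too few counts for a test in macrophages. Mean saline Mfge8 was 24.6 CPM in microglia and 22.7 CPM in B-cells, and 12.6 to 18.4 CPM in macrophages outside the first DMSO library. The median log2 fold change of the genes was -1.58 in macrophages, where the median of all genes was -0.042. It was -1.23 in microglia against -0.18, and -1.68 in monocytes against -0.047. Of the 5 called in monocytes, Axl, Mfge8 and Gas6 lay near the levels of B-cells with saline, as described below. The level of microglia markers below which a cell could enter another class was set per library and moved with LPS, from 11243 to 13321 CPM with saline to 1825 to 2389 CPM with LPS. The microglia list summed to 5126 to 5608 CPM in saline and 527 to 826 CPM in LPS macrophages, and to 1748 to 2685 CPM in saline and 343 to 513 CPM in LPS monocytes. It was thus lower with LPS in both classes together with Mertk in macrophages and Pros1 and Elmo1 in both, genes that were higher in saline microglia than in either class, and its part in these results was not tested. The genes not called lower were Axl in microglia and Mertk in monocytes, both TAM receptors. With saline, Axl in microglia lay below its levels in B-cells, and Mertk in monocytes was close to background, as described below. In the non-immune cells as a pool, 0 of 6 genes were called by edgeR, 0 passed without adjustment at 0.05 and 0 were called by DESeq2, while 13.1% of all genes were called lower and 13.5% higher.

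**Figure D1:**
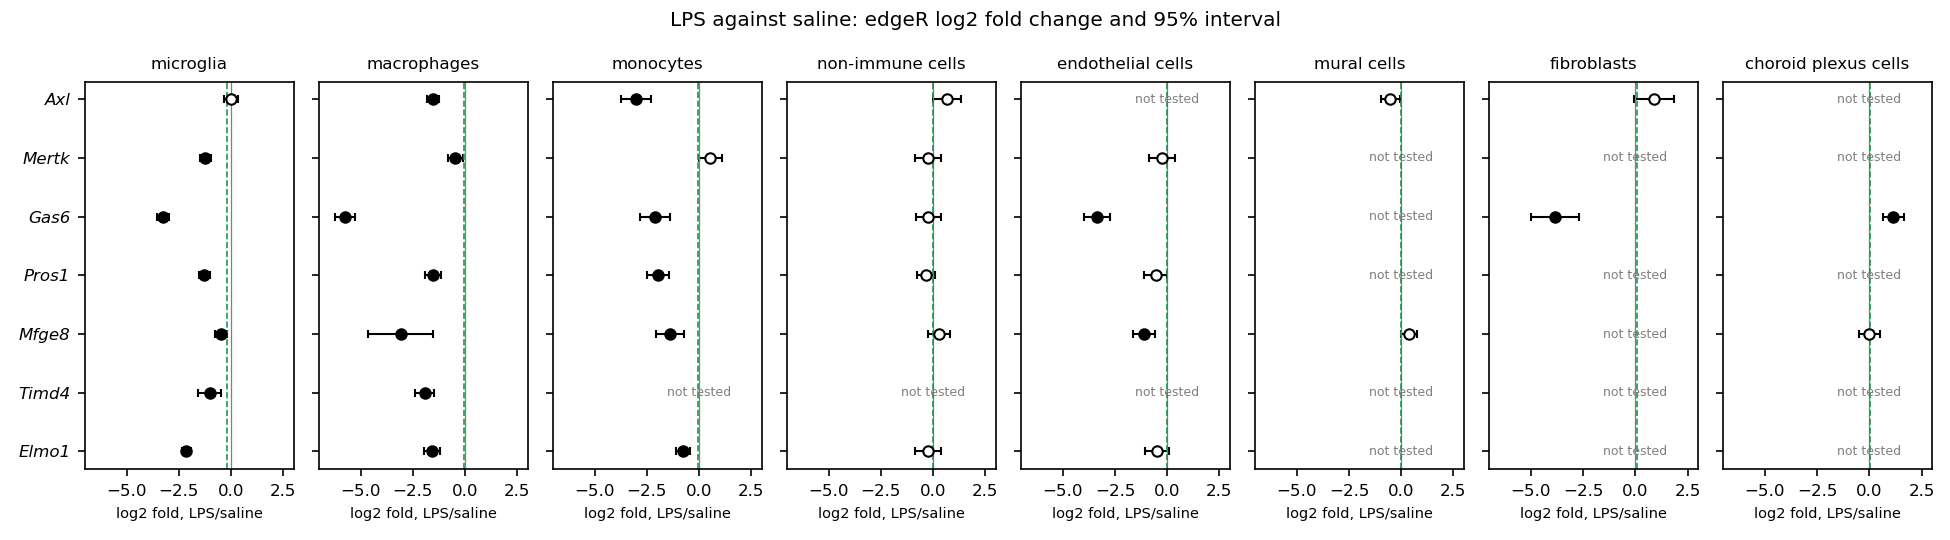
Log2 fold change of LPS against saline on the x axis for each gene (rows) in microglia, macrophages, monocytes, the non-immune pool and 4 of its classes (panels), with 95% intervals from edgeR; filled points were called, and the dashed line is the median of all genes. Gas6 in macrophages stands at -5.73, the intervals of Axl in microglia and Mertk in monocytes cross 0, and all intervals in the non-immune pool cross 0.

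Axl, the TAM receptor known for its rise in inflamed myeloid cells, had its highest mean levels in mural cells and macrophages in the saline brain, ahead of fibroblasts at 94.0 to 195 CPM in 3 libraries and dendritic cells at 38.8 to 286 CPM in 4, whose range overlapped that of macrophages. In saline macrophages it stood at 238, 227, 245 and 223 CPM, and in LPS macrophages at 57.0, 72.6, 69.0 and 55.5 CPM. Every LPS library lay far below every saline library, and the fold change was -1.55 on the log2 scale (SE 0.14, adjusted p = 3.9e-07). In microglia Axl was low in both groups, at 17.3, 22.3, 19.2 and 21.0 CPM with saline and 13.4, 8.80, 14.4 and 11.1 CPM with LPS. The CPM values did not overlap and were lower with LPS, but the log2 fold change on the TMM scale was -0.017 (95% interval -0.36 to 0.32, adjusted p = 0.93). The direction of Axl in microglia therefore depends on the scale: library totals gave -0.74 and a call (adjusted p = 0.00062), and RLE factors gave 0.084. Fitted by capture day, with 2 libraries against 2, it was 0.53 on day 1 (adjusted p = 0.0038) and -0.39 on day 2 (adjusted p = 0.11), a difference that was not tested, while CPM was lower with LPS on both days. Per cell, the mean number of Axl UMIs was 0.0552 in saline and 0.0650 in LPS microglia, whose median depth was higher. Saline microglia lay below the 24.9 to 71.0 CPM of saline B-cells and the 26.4 to 39.4 CPM of saline free RNA. LPS microglia lay above the 0 to 8.09 CPM of LPS B-cells and below the 15.99 to 18.8 CPM of LPS free RNA. Levels of free RNA are scaled to its own UMIs and are not the part it adds to a cell. It made up an estimated 6.84% to 8.34% of saline and 3.57% to 4.49% of LPS microglial UMIs.

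In monocytes Axl stood at 75.7, 18.9, 56.0 and 43.3 CPM with saline and at 5.21, 3.94, 7.36 and 5.17 CPM with LPS. Saline libraries varied widely, yet the lowest of them lay above the highest LPS library. The log2 fold change was -3.01 (SE 0.34, adjusted p = 4.4e-06), resting on 102 UMIs in 747 saline monocytes and 68 UMIs in 3022 LPS monocytes. The saline UMIs lay in 8 to 20 cells per library, and the 2 highest cells held 11 of 25, 4 of 10, 18 of 44 and 9 of 23 of them. Saline B-cells held 24.9 to 71.0 CPM, with a UMI in 2.51% to 6.76% of cells, and the saline monocyte levels overlapped these. With free RNA subtracted, Axl in saline B-cells was 72.6, 25.3, 53.4 and 24.0 CPM. Subtraction thus left it almost unchanged, and the source of Axl in B-cells was not tested. The thinned share was 2.84% in saline monocytes and 1.57% in saline B-cells. In LPS B-cells 1 UMI was counted in all 4 libraries together, so Axl was lower with LPS in these cells too. In free RNA, Axl was 26.4 to 39.4 CPM with saline and 15.99 to 18.8 CPM with LPS.

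Mertk, the TAM receptor of microglia, was highest in microglia in the saline brain. Its saline microglial values were 616, 549, 546 and 494 CPM and its LPS values were 133, 169, 147 and 116 CPM. The groups stood well apart, and the log2 fold change was -1.23 (SE 0.12, adjusted p = 1.9e-06). In macrophages the difference was smaller. Saline macrophages had 167, 145, 171 and 137 CPM and LPS macrophages had 78.8, 116, 86.9 and 75.8 CPM. The ranges did not overlap, but the fold change of -0.46 (SE 0.16, adjusted p = 0.025) was no longer called in 4 of 8 fits that left out 1 library: without replicate 1 or 2 of LPS with inhibitors, replicate 1 of LPS with DMSO, or replicate 1 of saline with inhibitors. Those 8 fits ranged from -0.62 to -0.38.

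Monocytes were the exception for Mertk. Saline monocytes had 33.3, 15.1, 45.8 and 22.6 CPM, and LPS monocytes had 36.5, 42.2, 39.7 and 42.2 CPM. The LPS libraries lay close together inside the upper part of the saline range, and the log2 fold change of 0.53 (95% interval -0.014 to 1.08, adjusted p = 0.12) was not called. Without replicate 1 of saline with inhibitors, the highest saline library, it was 0.97 and called (adjusted p = 0.013). Cells were also compared after thinning each cell to 800 UMIs, which makes shares of cells with a UMI comparable across depths. The thinned share of saline monocytes with a Mertk UMI was 2.55%. It was 2.22% in saline B-cells, which should lack the gene, and 2.30% in saline T-cells and NK cells. Median depths were 1766 to 2726 UMIs in saline monocytes and 1622 to 2420 in saline B-cells. Mertk in saline monocytes thus lay close to background. In LPS monocytes the share was 3.997%, against 0.774% in LPS B-cells and 0.668% in LPS T-cells and NK cells. With free RNA subtracted, Mertk was 1.06 CPM on average in saline monocytes, from 67 UMIs before subtraction, and 32.9 CPM in LPS monocytes, and no fold is given because the subtraction takes the saline level close to 0. Without monocytes high in immediate-early genes, and with no subtraction, the log2 fold change was -0.039 (adjusted p = 0.96).

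Gas6, the ligand of all TAM receptors, gave the largest fall among the 7 genes in microglia and in macrophages. Saline macrophages carried 817, 861, 912 and 872 CPM, and LPS macrophages carried 11.4, 10.2, 21.7 and 8.12 CPM. The mean went from 866 ± 39.3 to 12.9 ± 6.07 CPM (SD, n = 4 libraries each), and the log2 fold change was -5.73 (SE 0.22, adjusted p = 1.1e-10). The LPS values rest on 41 UMIs in 1106 macrophages, and 1 cell held at most 2 of them. After thinning, 47.4% of saline macrophages and 1.05% of LPS macrophages had a Gas6 UMI.

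Microglia showed the same direction from a lower starting level. Their Gas6 was 145, 136, 138 and 134 CPM with saline and 8.17, 9.47, 11.02 and 6.17 CPM with LPS. The 4 saline libraries lay close together, and the log2 fold change was -3.27 (SE 0.13, adjusted p = 1.1e-09). The thinned share of microglia with a Gas6 UMI was 10.04% with saline and 0.715% with LPS. In saline monocytes Gas6 was 12.7 to 17.0 CPM, close to the 16.5 ± 0.870 CPM of saline B-cells, which should lack the gene. LPS monocytes had 2.45 to 3.55 CPM, above the 0 to 1.84 CPM of LPS T-cells and NK cells and the 0 CPM of LPS B-cells. The log2 fold change in monocytes was called at -2.10 (adjusted p = 0.00018), from a saline level close to background, and Gas6 was lower with LPS in B-cells too. Free RNA itself held 143 to 172 CPM of Gas6 with saline and 35.0 to 50.5 CPM with LPS.

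Pros1, the gene of protein S, was highest in microglia in the saline brain. Saline microglia had 319, 276, 315 and 279 CPM and LPS microglia had 68.1, 72.7, 96.0 and 60.5 CPM, and the log2 fold change was -1.27 (SE 0.11, adjusted p = 8.2e-07). In macrophages the saline values of 117, 101, 142 and 121 CPM stood above the LPS values of 33.2, 42.1, 25.6 and 29.8 CPM. This fold change was -1.55 (SE 0.18, adjusted p = 4.1e-06). Saline monocytes had 51.5, 37.8, 77.6 and 69.6 CPM and LPS monocytes had 12.8, 14.2, 11.9 and 17.5 CPM. Both saline and LPS monocytes were thus below the matching microglia and macrophages, and their fold change was -1.98 (SE 0.25, adjusted p = 1.4e-05). The thinned share in saline monocytes, 5.40%, was above the 1.92% of saline B-cells. Of the 7 genes, Pros1 was the one for which the LPS change differed in none of the 3 tests between classes given below.

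Mfge8, the integrin bridge, was scarce in all 3 myeloid classes. Microglia had 21.3, 27.8, 23.1 and 26.3 CPM with saline and 10.01, 11.3, 10.3 and 10.9 CPM with LPS. The groups did not overlap, the log2 fold change was -0.48 (SE 0.14, adjusted p = 0.0097), and the call was lost with RLE factors (adjusted p = 0.057) and with free RNA subtracted (-0.22, adjusted p = 0.17). It was also lost without replicate 2 of saline with DMSO (-0.33) or of saline with inhibitors (-0.34). Free RNA held 91.1 to 124 CPM of Mfge8 with saline and 35.4 to 44.4 CPM with LPS, above the microglial level in every library. These levels are scaled to free RNA alone, which made up an estimated 6.84% to 8.34% of saline microglial UMIs. In macrophages the saline values were 61.0, 14.0, 12.6 and 18.4 CPM and the LPS values 3.11, 1.45, 2.56 and 2.71 CPM. The first saline library stood apart, and in it 1 cell held 88 of 123 Mfge8 UMIs; in the other 3 saline libraries no cell held more than 2. Each LPS library had 1 to 3 Mfge8 UMIs in macrophages. The log2 fold change was -3.09 (SE 0.72, adjusted p = 0.0023) and -2.23 without that saline library. With free RNA subtracted the gene had too few counts for a test in macrophages. In saline monocytes the thinned share of 2.09% was below the 2.16% of saline B-cells, so monocyte Mfge8 is read as background. Its log2 fold change in monocytes was -1.38 (SE 0.32, adjusted p = 0.003).

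Timd4, the phosphatidylserine receptor TIM-4, was a macrophage gene. In saline macrophages it was 145, 92.1, 101 and 121 CPM, and no other class exceeded 6.25 CPM on average with saline. LPS macrophages had 17.6, 29.0, 19.2 and 31.1 CPM. The groups were apart, and the log2 fold change was -1.94 (SE 0.22, adjusted p = 4.2e-06). The thinned share of macrophages with a Timd4 UMI was 7.06% with saline and 1.68% with LPS. In microglia Timd4 did not reach more than 1.11 CPM in any library. Its call there (log2 fold change -1.01, adjusted p = 0.0037) was between 14 to 46 UMIs per saline library and 8 to 21 per LPS library. The call was lost with free RNA subtracted (-0.90, adjusted p = 0.055). Saline levels lay below the 2.06 to 5.94 CPM of saline free RNA, a level scaled to free RNA alone. In monocytes the counts were too low to test.

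Elmo1, the Dock partner in engulfment, was highest in microglia with saline. Its values were 629, 544, 579.6 and 484 CPM in saline microglia and 79.3, 81.4, 81.8 and 62.9 CPM in LPS microglia. This was the second largest microglial change of the 7 genes, at -2.14 on the log2 scale (SE 0.11, adjusted p = 6.1e-09). The thinned share of microglia with an Elmo1 UMI was 34.9% with saline and 6.03% with LPS. In macrophages it was 179.6, 125, 176 and 129.7 CPM with saline and 40.4, 26.1, 52.4 and 42.0 CPM with LPS, and the log2 fold change was -1.58 (SE 0.18, adjusted p = 3.8e-06). Monocytes changed less, from 218, 146, 207 and 179 CPM to 109, 92.3, 114 and 89.9 CPM. Their log2 fold change was -0.77 (SE 0.16, adjusted p = 0.0013). Saline neutrophils held 273 ± 95.6 CPM of Elmo1, and 144 to 352 CPM with free RNA subtracted. An estimated 9.58% to 23.5% of neutrophil UMIs over all libraries were free RNA, which held 285 to 469.5 CPM of Elmo1 with saline. Their thinned share was 21.6%, against 8.28% in saline B-cells.

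**Figure D2:**
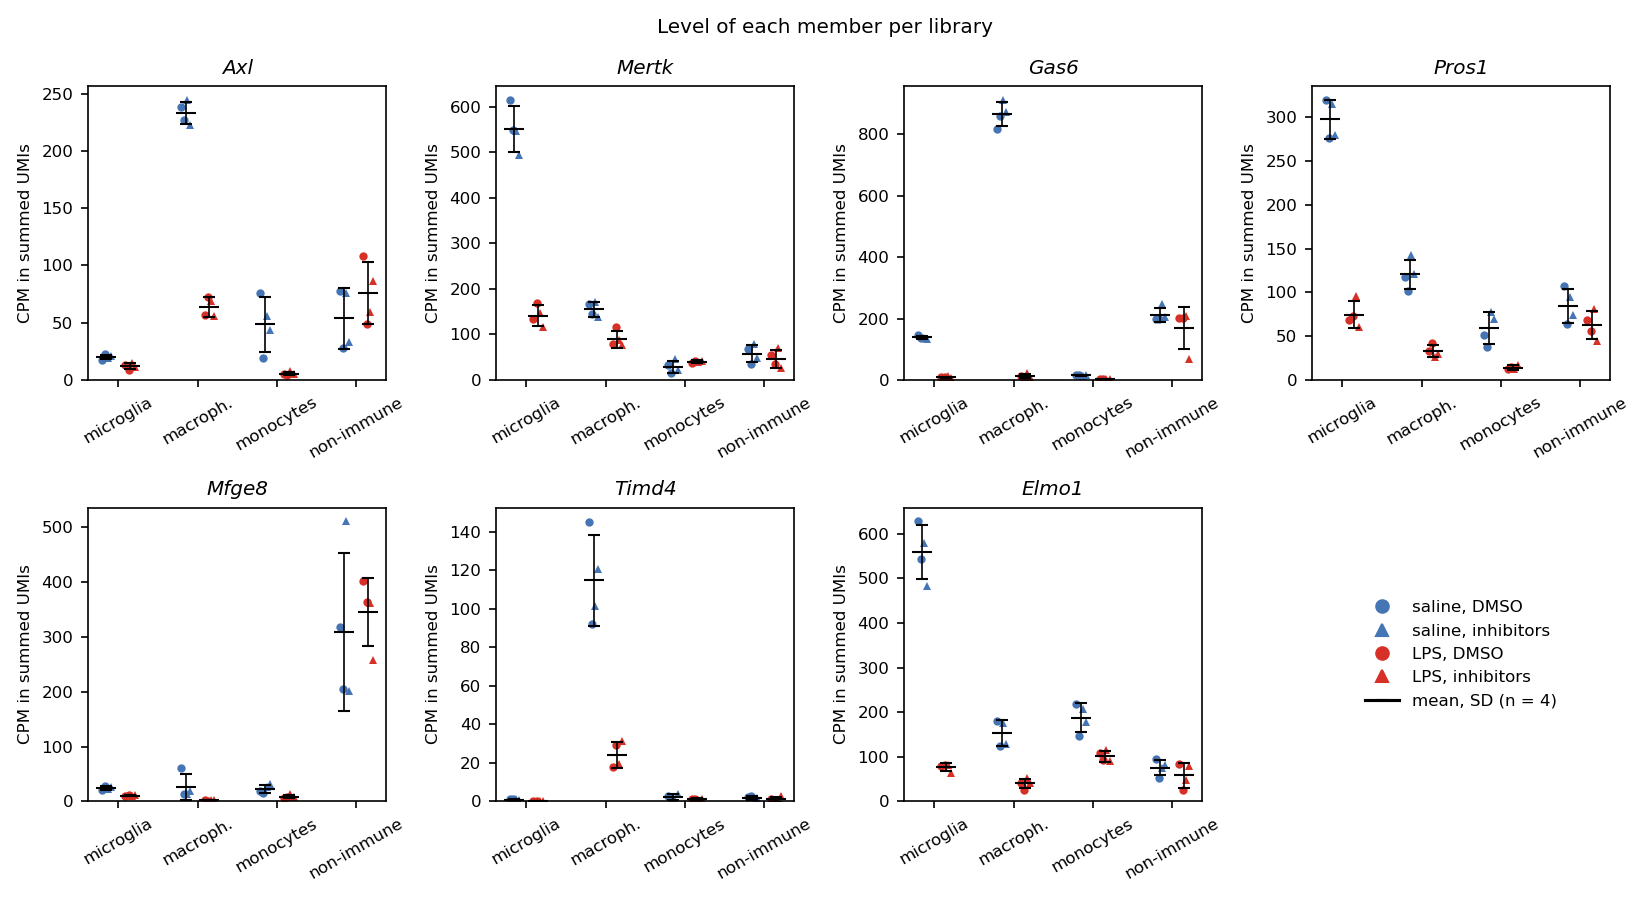
CPM (y axis, from 0) of each gene in each of the 8 libraries, by class (x axis), saline in blue and LPS in red, circles for DMSO and triangles for inhibitors, with the mean and SD of 4 libraries. Gas6 in macrophages separates saline (817 to 912 CPM) from LPS (8.12 to 21.7 CPM), and Mertk in monocytes shows overlapping groups.

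Shares of cells bear on whether the sums rest on few cells. Thinned to 800 UMIs, the share of microglia with a Mertk UMI was 34.0% with saline and 10.9% with LPS, and unthinned it was 68.2% and 47.0%, the LPS cells being deeper. For Pros1 the thinned share went from 20.8% to 5.95%. For Axl in microglia the thinned shares overlapped, at 1.15% and 0.904% (exact two-sided permutation test, p = 0.057), and the unthinned shares ran the other way, at 3.57% and 5.09%. In macrophages the thinned share went from 13.02% to 4.71% for Axl and from 11.5% to 6.79% for Mertk. Where thinned shares did not overlap, the exact permutation p was 0.0286, the smallest that 4 against 4 libraries allow, and 0.0786 after adjustment over 77 comparisons. These shares cover counting of barcodes and not of expressing cells.

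**Figure D3:**
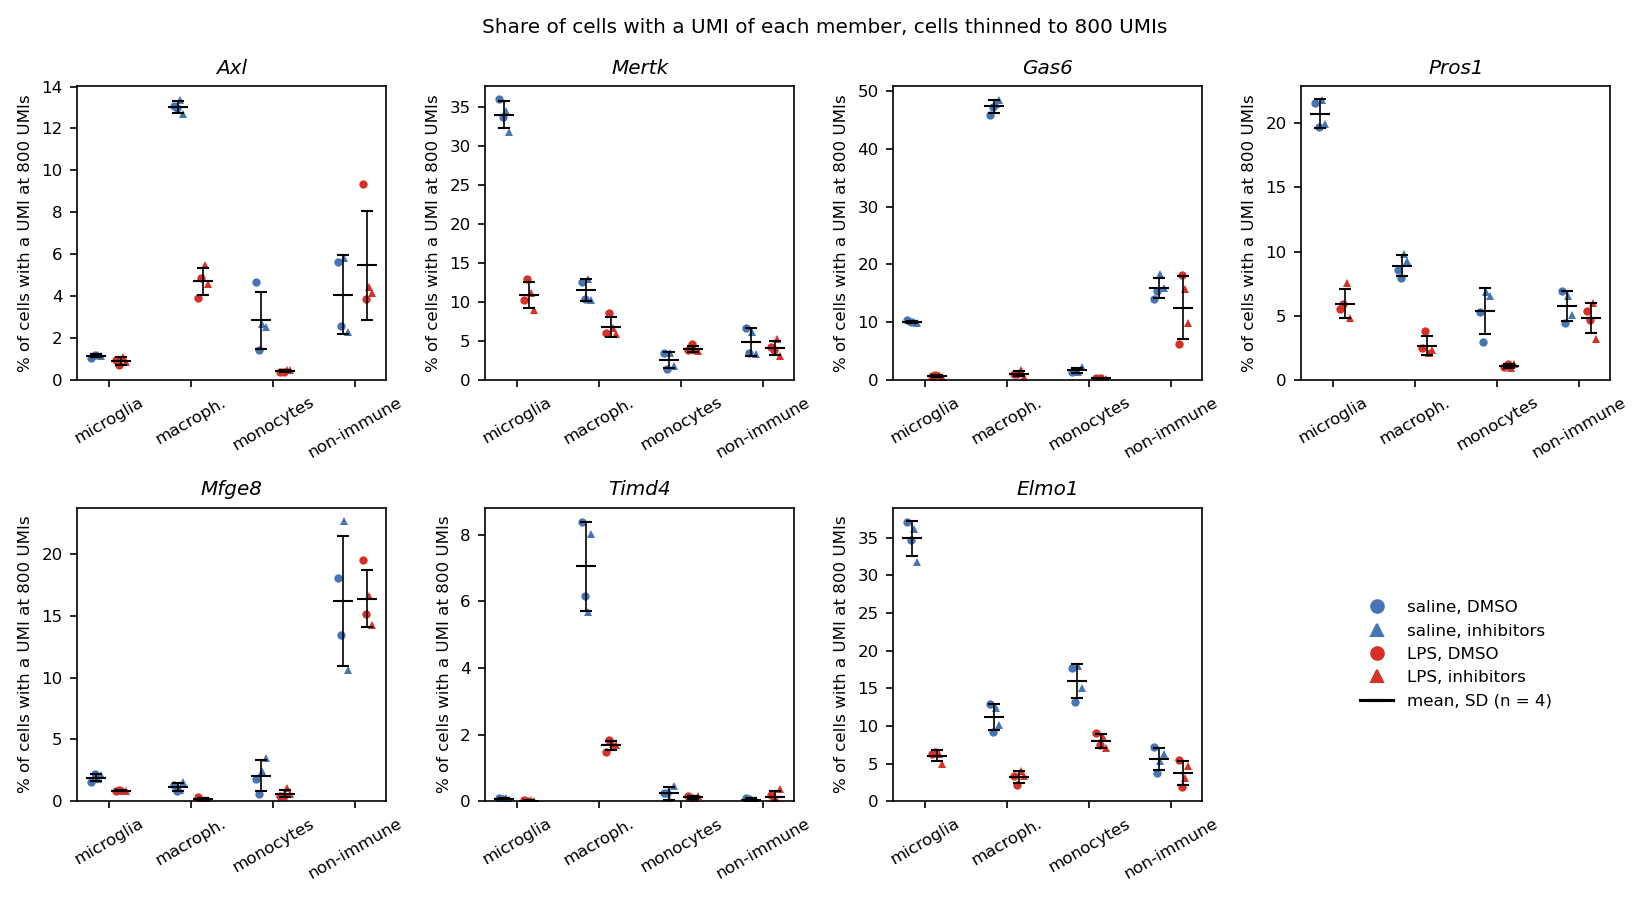
Percent of cells with at least 1 UMI of each gene after thinning every cell to 800 UMIs (y axis, from 0), per library and class (x axis), saline in blue and LPS in red, circles for DMSO and triangles for inhibitors, with the mean and SD of 4 libraries. Gas6 in macrophages goes from 47.4% to 1.05% on average, and Axl in microglia lies near 1% in both groups.

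Macrophages of the brain's borders are often divided by Lyve1, a receptor of perivascular and leptomeningeal macrophages that is also one of the gate markers here. Split by a Lyve1 UMI within each saline library, Timd4 was 180.4 to 236 CPM with Lyve1 and 36.4 to 76.1 CPM without. Gas6 was 1011 to 1168 CPM with Lyve1 and 619 to 789 CPM without. Axl ran the opposite way, with 109 to 189 CPM with Lyve1 and 237 to 321 CPM without, while Mertk ranges overlapped at 152 to 179 and 129.9 to 175 CPM. For Timd4, Gas6 and Axl the 4 libraries did not overlap between these sets of cells. They are descriptions, since both sets come from the same libraries, and cells with a Lyve1 UMI were deeper, with a median of 2090 to 2770.5 UMIs against 1719.5 to 2396. With saline, 108 to 320 macrophages per library had a Lyve1 UMI and 288 to 587 had none, and with LPS only 14 to 19 had one and 223 to 298 had none. Fewer cells with a Lyve1 UMI can reflect fewer such cells or less Lyve1 RNA per cell, which cannot be told apart here, and the part of either in the fall of Timd4 in macrophages as a whole was not tested. In the few LPS cells with a Lyve1 UMI, Timd4 was 16.4 to 212 CPM from 1 to 12 UMIs and Axl 49.1 to 152 CPM from 3 to 8 UMIs, and both ranges overlapped those of the matching saline cells, whereas Gas6 was 0 to 32.7 CPM from 0 to 2 UMIs. Among macrophages without one, Gas6 was 8.80 to 21.9 CPM with LPS, Axl 54.2 to 71.0 CPM and Timd4 16.1 to 24.7 CPM, each below the matching saline cells of all libraries.

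**Figure D4:**
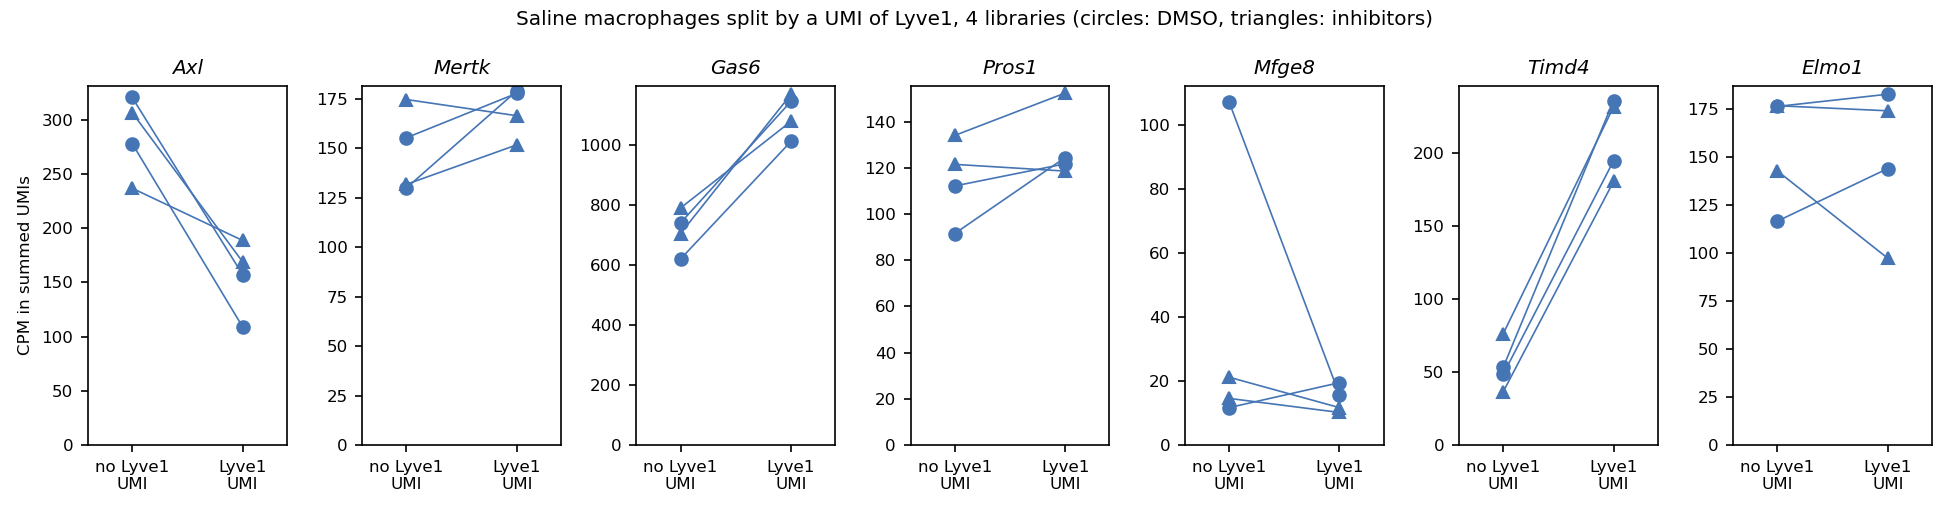
CPM (y axis, from 0) of each gene in saline macrophages without and with a UMI of Lyve1 (x axis), joined by library, circles for DMSO and triangles for inhibitors. In all 4 libraries Timd4 and Gas6 are higher and Axl is lower in cells with a Lyve1 UMI.

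Whether the LPS change itself differed between classes was tested with the mouse as a block. For a given ratio of difference to SE, its adjusted p-values are smaller than those of the tests within a class. The same 8 mice stand behind both, so these p-values are given as computed and not as a measure of that strength. Between macrophages and microglia 6 of 7 genes differed, against 24.5% of all genes tested. With saline, microglial Axl lay below its levels in B-cells, and microglial Timd4 and Mfge8 overlapped the levels of B-cells. Macrophage Mfge8 with saline lay below B-cells outside the first DMSO library. The Axl and Timd4 differences thus set a fall in macrophages against microglial values of which background makes up an unknown part. For Mfge8 this limit applies to both classes. The LPS change of Axl was more negative in macrophages by 1.61 on the log2 scale (difference -1.61, SE 0.15, adjusted p = 3.2e-25), that of Gas6 by 2.52 (difference -2.52, SE 0.21, adjusted p = 4.3e-32) and that of Mfge8 by 2.67 (difference -2.67, SE 0.42, adjusted p = 4.6e-09), the last being -1.50 without the library with the cell of 88 UMIs. Mertk went the other way, its fall being smaller in macrophages (difference 0.71, SE 0.14, adjusted p = 6.0e-06), as did Elmo1 (0.50, SE 0.17, adjusted p = 0.016). The Elmo1 call was lost without replicate 1 (0.38) or replicate 2 (0.44) of LPS with inhibitors. For Timd4 the difference was -0.97 (adjusted p = 0.027), was called in 2 of 8 fits that left out 1 library (without replicate 2 of either LPS group) and was not called with library totals (-0.51, adjusted p = 0.38).

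Monocytes were compared in the same way. Against microglia, 4 of 7 genes differed (20.4% of all genes), with Mertk at 2.15 (SE 0.25, adjusted p = 1.2e-12), Elmo1 at 1.75, Gas6 at 1.55 and Axl at -2.65. Against macrophages the same 4 genes differed (15.3% of all genes), with Gas6 at 3.69, Mertk at 1.01, Elmo1 at 0.81 and Axl at -1.43. In monocytes with saline, Gas6 and Mertk were near background and Axl overlapped the levels of B-cells. LPS Axl overlapped the 0 to 10.9 CPM of LPS T-cells and NK cells. The differences of Gas6 and Mertk thus set a change in microglia or macrophages against monocyte values of which background makes up an unknown part. For Axl, free RNA held 26.4 to 39.4 CPM with saline and made up an estimated 7.99% to 10.2% of saline monocyte UMIs. The source of Axl in B-cells, and its part in monocyte Axl, was not tested. As computed, the fall of Axl was steepest in monocytes and the change of Mertk least negative there, in both tests. With these limits the order is not read as one of the cells themselves, and mean Axl in B-cells went from 43.3 to 2.02 CPM. The split of calls over all genes in these tests moved with the scaling. Of the genes called between macrophages and microglia, 4019 were lower and 920 higher in macrophages with TMM, and 1895 and 2291 with library totals. Between monocytes and microglia these were 1867 and 2279, and 1286 and 3642. Between monocytes and macrophages they were 879 and 786, and 623 and 1389. The directions of the genes called here were the same under both scalings.

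In the pool of non-immune cells Axl was 77.7, 28.0, 75.7 and 33.2 CPM with saline and 109, 48.5, 59.4 and 86.8 CPM with LPS. The groups overlapped, and the log2 fold change of 0.65 (95% interval -0.0083 to 1.31, adjusted p = 0.14) was not called, but it was with capture day as a block (0.72, adjusted p = 0.037). Mertk, Pros1 and Elmo1 had log2 fold changes of -0.23, -0.34 and -0.26 and Mfge8 of 0.29, with adjusted p between 0.24 and 0.59. The pool mixed classes with different levels, so each class with enough cells was also fitted alone. Mural cells, the contractile cells of vessel walls, held the highest mean Axl and Mfge8 of all classes, although for Axl with LPS their range overlapped that of fibroblasts (132 to 378 CPM). Saline mural cells had 2153, 2242, 2259.7 and 2191 CPM of Mfge8 and LPS mural cells had 2161, 4117, 2367 and 3029 CPM, from 14 to 64 cells per library. The groups overlapped and the log2 fold change of 0.37 (95% interval -0.023 to 0.75, adjusted p = 0.15) was not called. Axl was 412, 367, 386 and 385 CPM with saline and 296, 320.2, 207 and 254 CPM with LPS in mural cells. These did not overlap, but the fold change of -0.52 (95% interval -0.99 to -0.056) had an adjusted p of 0.089 against an unadjusted p of 0.030. In this class 14.7% of all genes were called lower, and DESeq2 called 0 of the 2 genes tested.

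In endothelial cells, which line the vessels, Gas6 was 181, 179, 273 and 203 CPM with saline and 20.6, 23.1, 21.5 and 5.14 CPM with LPS. Its log2 fold change was -3.36 (SE 0.30, adjusted p = 1.1e-07). Mfge8 was 104 to 115 CPM with saline and 34.7 to 66.9 CPM with LPS, and its fold change was -1.11 (SE 0.24, adjusted p = 0.0014). These 2 of 5 genes tested were called lower, where 18.2% of all genes were, and Mertk, Pros1 and Elmo1 were not called. The microglia list within endothelial cells was 3046 to 4296 CPM with saline and 692 to 1245 CPM with LPS, and its part in these results was not tested. Fibroblasts had 479, 259.7 and 181 CPM of Gas6 in the 3 saline libraries with at least 10 cells and 18.0, 17.6 and 16.9 CPM in the 3 such LPS libraries. These values rest on 32, 8 and 25 UMIs with saline and on 2, 2 and 3 UMIs with LPS. The 8 UMIs of replicate 2 of saline with DMSO lay in 8.33% of its 12 cells. The fold change was -3.84 (SE 0.54, adjusted p = 0.00012, 10.9% of all genes called lower), and the libraries with 7 cells were left out of this fit.

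Choroid plexus cells, the epithelium that makes cerebrospinal fluid, went the other way for Gas6. They had 221, 225, 351 and 228 CPM with saline and 946, 650.1, 610.0 and 441 CPM with LPS. Every LPS library was above every saline library, and the log2 fold change was 1.16 (SE 0.23, adjusted p = 0.0029), where 8.93% of all genes tested in the class were called higher. The LPS libraries held 38, 58, 64 and 43 of these cells. In the first, 154411 UMIs lay in 38 cells with a median of 1306, and in the second 170744 lay in 58 with a median of 1371. A few deep cells thus weighed in these sums, and their part in the Gas6 level was not tested. Mfge8 did not differ detectably in these cells, at 176 ± 18.2 CPM with saline and 201 ± 44.0 CPM with LPS. The summed choroid markers took 430560 to 454321 CPM with saline and 232788 to 403874 CPM with LPS, which leaves a larger share of UMIs for all other genes, and the part of this in the Gas6 level was not tested. The rise was also called with library totals, and leaving out 1 library gave 0.99 to 1.30. In the pool of non-immune cells, Gas6 was 198 to 246 CPM with saline and 66.8 to 208 CPM with LPS and its log2 fold change was -0.24 (adjusted p = 0.57).

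The order of the classes by level was taken within each gene. With saline, Axl was highest in mural cells (387 ± 18.5 CPM), next in macrophages (233 ± 9.88 CPM), and these did not overlap. Mertk was highest in microglia (551 ± 49.99 CPM) and then in macrophages (155 ± 16.4 CPM), whose range overlapped that of mural cells (92.4 ± 46.4 CPM). Astrocytes are left out of this order, since only 1 library held at least 10 of them. Gas6 was highest in macrophages, apart from ependymal cells (382 ± 69.5 CPM), fibroblasts (307 ± 155 CPM), choroid plexus cells (256 ± 63.4 CPM) and endothelial cells (209 ± 43.9 CPM), among which neighbours overlapped. With LPS, choroid plexus cells (662 ± 210 CPM) stood first and apart, and macrophages fell among endothelial cells, fibroblasts and microglia, with overlapping ranges.

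Pros1 was highest in saline microglia (298 ± 22.8 CPM), apart from endothelial cells (125 ± 17.6 CPM) and macrophages (120 ± 16.9 CPM), which overlapped. With LPS, mural cells, endothelial cells, microglia and fibroblasts formed a run of overlapping neighbours from 111 to 73.8 CPM. Elmo1 was highest in saline microglia (559 ± 61.0 CPM) and apart from neutrophils. With LPS, oligodendrocytes led at 286 ± 105 CPM over 2 libraries and overlapped neutrophils at 154 ± 53.0 CPM, and monocytes at 101 ± 12.03 CPM and microglia at 76.4 ± 9.02 CPM stood apart from each other. For Mfge8, mural cells came first in both groups, then choroid plexus cells and then endothelial cells, each apart from the next with saline. Timd4 was apart in macrophages in both groups.

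**Figure D5:**
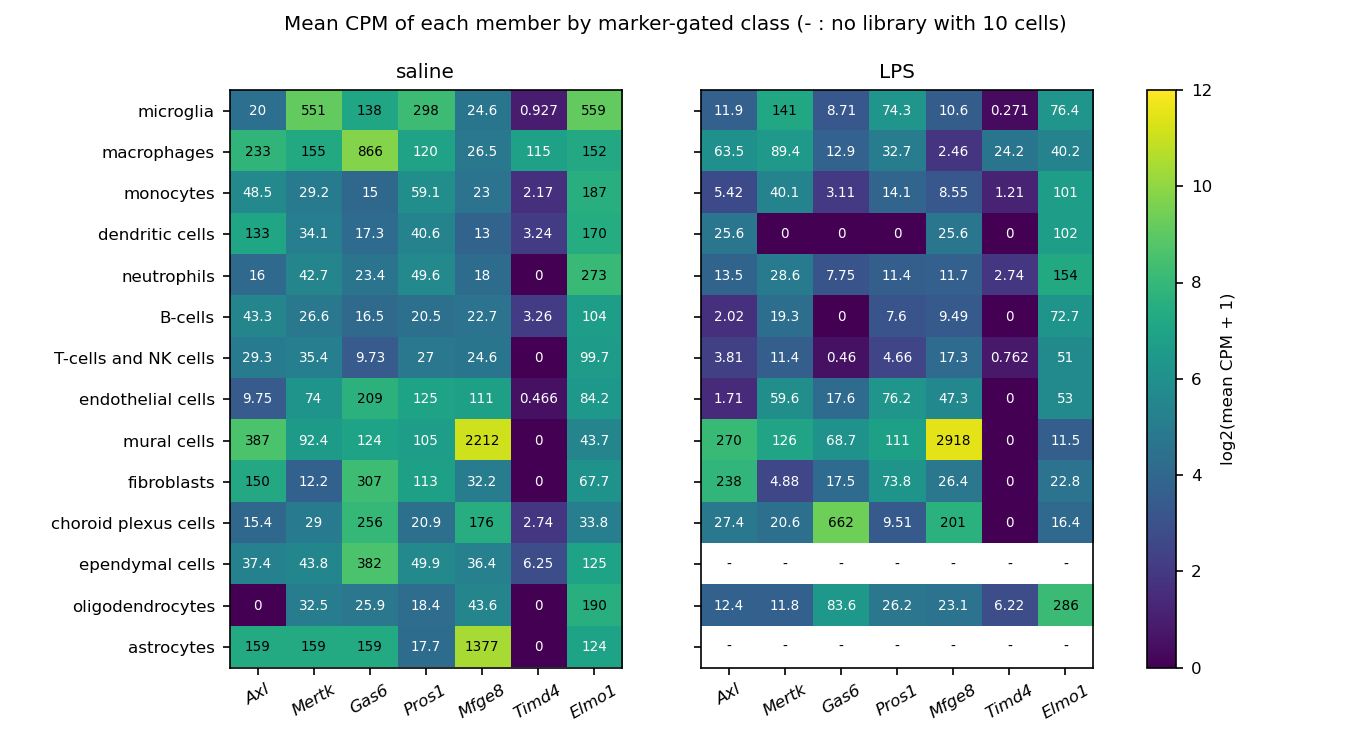
Mean CPM of each gene (x axis) in each marker-gated class (y axis), in saline libraries on the left and LPS libraries on the right, coloured as log2(mean CPM + 1); a dash marks a class without a library of at least 10 cells. Gas6 is brightest in macrophages with saline and in choroid plexus cells with LPS, and Mfge8 is brightest in mural cells in both.

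None of the genes was called between DMSO and inhibitor libraries. The log2 difference of DMSO from inhibitor libraries ran from -0.14 to 0.15 in microglia, -0.14 to 1.25 in macrophages, -0.63 to 0.36 in monocytes and -0.16 to 0.21 in non-immune cells. edgeR and DESeq2 called 0 genes of the 7 in microglia and in macrophages and 0 of 6 in monocytes and in non-immune cells, where edgeR called 0.388%, 0.616%, 0.092% and 0.00944% of all genes. At an unadjusted p under 0.05 there was 1 gene in macrophages, Mfge8, and 1 in monocytes, also Mfge8 (-0.63, 95% interval -1.24 to -0.0098). Macrophage Mfge8 was higher with DMSO by 1.25 (adjusted p = 0.71), which includes the library with the cell of 88 UMIs. Without that library it was -0.099, and without replicate 2 of the same group it was 1.70 and called (adjusted p = 0.018). The difference of the LPS change between DMSO and inhibitor libraries was called for 0 genes by edgeR and by DESeq2 in each of the 4 classes, with 0 at an unadjusted p under 0.05. Over all genes, edgeR called 0.018% in microglia and 0.0258% in monocytes in that test. The intervals were wide: for macrophage Pros1 the difference was 0.73 (95% interval -0.024 to 1.49) and for microglial Mertk 0.094 (95% interval -0.60 to 0.79).

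A list of 63 other genes of phosphatidylserine signalling, engulfment and the responses that follow was read from the same fits. In microglia 20 rose and 26 fell of 62 tested, where 30% of all genes rose and 35.4% fell, and the median log2 fold change was -0.21 against -0.18 for all genes. In macrophages 13 rose and 16 fell of 42, beside 24.2% and 25.6% of all genes, with both medians at -0.042. In monocytes 8 rose and 22 fell of 53, beside 17.6% and 18.6% of all genes, and the medians were -0.32 and -0.047. In non-immune cells 15 rose and 8 fell of 50, beside 13.5% and 13.1%, and the medians were 0.074 and -0.013. Of the phosphatidylserine receptors and bridging molecules, 4 rose and 12 fell of 22 tested in microglia, 4 and 7 of 13 in macrophages, 3 and 9 of 18 in monocytes, and 7 and 4 of 17 in non-immune cells. Of the engulfment machinery, 5 rose and 6 fell of 14 tested in microglia, 5 and 4 of 11 in macrophages, 1 and 4 of 13 in monocytes, and 2 and 2 of 12 in non-immune cells.

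Named genes of this list were, among those called, the 3 with the largest rise and the 3 with the largest fall in each class. Cd300lf, a phosphatidylserine-binding receptor of myeloid cells, went from 3.04 ± 0.607 to 290.2 ± 33.7 CPM in microglia and rose by 7.31 on the log2 scale (SE 0.19, adjusted p = 7.8e-11). It rose by 6.43 in macrophages, by 3.04 in monocytes and by 3.31 in non-immune cells. Socs3, a feedback inhibitor of cytokine signalling that TAM receptors are known to induce, rose by 4.48 in microglia and in macrophages, by 2.40 in monocytes and by 3.70 in non-immune cells. Its libraries spread widely, from 41.1 ± 34.1 to 545 ± 357 CPM in microglia (SE 0.66) and from 34.6 ± 32.7 to 606 ± 371 CPM in macrophages (SE 0.62). P2ry2, a receptor for nucleotides released by dying cells, rose by 4.78 in microglia, from a very low 0.681 ± 0.147 CPM to 10.8 ± 1.29 CPM. Thbs1, a bridging glycoprotein, rose by 3.30 in macrophages, Nr1h3 (LXRα) by 4.28 in monocytes and Socs1 by 2.58 in non-immune cells.

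S1pr1, a receptor for sphingosine 1-phosphate, fell by 5.05 in microglia and by 4.26 in macrophages. Itgb5, the integrin chain that with the alpha-V chain binds Mfge8, fell by 2.34 in microglia, from 1274 ± 155 to 154 ± 43.9 CPM, and by 2.30 in monocytes. Sirpa, the receptor for the do-not-eat-me signal CD47, fell by 1.95 in microglia and by 1.30 in non-immune cells. Cd36, a scavenger receptor, fell by 3.53 in macrophages and by 2.94 in monocytes. Stab1, a phosphatidylserine receptor of macrophages, fell by 3.25 in macrophages, from 2652 ± 273 to 221 ± 40.6 CPM. In monocytes Cd300lb fell by 3.08, and in non-immune cells Scarb1 fell by 1.54 and Dock2, the haematopoietic Dock protein, by 1.47. All of these are on the TMM log2 scale and passed the edgeR test, and in non-immune cells Socs1, Sirpa and Dock2 lost the call in 2, 2 and 4 of the alternatives. Cd300lf, Sirpa and Dock2 are genes of myeloid cells and moved in the non-immune pool in the direction they moved in microglia. With free RNA subtracted, Cd300lf in the pool rose by 2.75, Sirpa was no longer called (-0.36, adjusted p = 0.50) and Dock2 had too few counts for a test.

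Genes with a like pattern were sought over 23 points, the mean saline and LPS levels of each gated class, among 16099 genes. These are Pearson correlations of log2(CPM + 1), and points of the same libraries are not independent. Timd4 was most like Mrc1 (r = 0.918) and Ms4a7 (r = 0.890), both markers used to gate macrophages, and Ccl8 (r = 0.861). Elmo1 was most like Rap1gds1 (r = 0.911), Abi3 (r = 0.904) and Twf2 (r = 0.888). Pros1 was most like Trim47 (r = 0.908), and Mfge8 most like Tlcd5 (r = 0.892), Rasl11a (r = 0.890) and Tmem255b (r = 0.883). Mertk was most like Gpr157 (r = 0.859), and Gas6 was most like Retsat (r = 0.856). Axl had the loosest match of the 7, Parp3 (r = 0.791).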

How the data were processed

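Single-cell RNA libraries of CD45+ cells from the unperfused brains of 8 mice were analysed, 1 library per mouse. The authors deposited counts of UMIs per gene and barcode without normalization or cell selection, made with PIPseeker according to the methods; Seurat 4 is named in the submitters' processing notes. The tables name genes by Ensembl identifier and symbol, and the 7 genes were found by symbol. Kept cells had 800 to 44999 UMIs, 250 to 6499 genes and under 5% mitochondrial UMIs.

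A cell entered a class with at least 3 distinct markers of that class alone and microglia-marker CPM below a bar set per library; microglia needed at least 3 microglia markers, a level above the bar and no other class. The rule for the bar was set after marker levels, and not levels of the 7 genes, had been seen. In all, 7616 cells of mixed class were left out, in place of a doublet caller, as were 9348 cells without a class. The latter were 449 to 619 of 13230 to 16105 cells per saline library. They were 1249 to 2277 of 12039 to 17364 cells per LPS library. Within 20% of the bar lay 3357 cells, 1.20% to 1.78% per saline library and 3.84% to 4.57% per LPS library. The part of this uneven loss in the LPS results was not tested.

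UMIs were summed per library and class (at least 10 cells) and tested with edgeR 4.0.16 in R 4.3.3 (filterByExpr, TMM, quasi-likelihood F-test, Benjamini-Hochberg). SE is the fold change over the root of F. DESeq2 1.42.0 was an alternative. Fits were tested on simulated data, and the outcome is not reported here. Free RNA was the profile of barcodes with 1 to 99 UMIs, and its subtraction was traced with choroid markers. The genes, the lists and the rule for named genes (all 7 genes, the 3 largest rises and falls of the pathway list per class, the 3 genes most alike in pattern) were chosen with earlier results of these data known. Some of the genes this rule names are not reported here.

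Replicate numbers match the batch of each sample, which is read here as the capture day, and so pair the libraries. Deviations of same-numbered libraries correlated at 0.093 to 0.52 in microglia, 0.017 to 0.31 in macrophages, 0.10 to 0.21 in monocytes and -0.0044 to 0.31 in non-immune cells. Each comparison of saline with LPS libraries was fitted without the block, and alternatives were the block, RLE, library totals, no filter on low counts, DESeq2, each day or ex vivo group alone, stricter gates, free RNA subtraction and leaving out each library. The block changed no call of the 7 genes except Axl in non-immune cells (log2 fold change 0.72, adjusted p = 0.037 with the block). The intervals cover the spread between these libraries.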

Additional observations from a re-analysis of the deposited data

Results flagged for a closer look

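Of 56 groups of 4 libraries examined for the 7 genes, 4 held a library far from the other 3, where chance gives about 5%. Mfge8 in saline macrophages was 61.0 CPM in the first DMSO library against 12.6 to 18.4 CPM, with 88 of its 123 UMIs in 1 cell. Elmo1 in LPS microglia was 62.9 CPM in the second inhibitor library against 79.3 to 81.8 CPM. Gas6 in non-immune cells was 66.8 CPM in the second LPS inhibitor library against 201 to 208 CPM, and 245.8 CPM in the first saline inhibitor library against 198 to 206 CPM.

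The LPS change differed between classes in 14 tests of the difference itself (log2, edgeR with the mouse as a block, Benjamini-Hochberg adjusted p under 0.05). Of all genes tested, 24.5% were called for macrophages minus microglia, 20.4% for monocytes minus microglia and 15.3% for monocytes minus macrophages. The limits given with these tests above hold here too. Among them are those of Axl, Mfge8 and Timd4 between macrophages and microglia and of Gas6, Mertk and Axl in monocytes. For macrophages minus microglia the differences were -1.61 for Axl, 0.71 for Mertk, -2.52 for Gas6, -2.67 for Mfge8, -0.97 for Timd4 and 0.50 for Elmo1. For monocytes minus microglia they were -2.65 for Axl, 2.15 for Mertk, 1.55 for Gas6 and 1.75 for Elmo1. For monocytes minus macrophages they were -1.43 for Axl, 1.01 for Mertk, 3.69 for Gas6 and 0.81 for Elmo1.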

How the results depend on the processing

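Of 494 log2 values of the 7 genes for LPS against saline and for its difference between classes, under alternatives other than leaving out a library, 451 kept direction and side of the threshold, 20 lost a call, 7 gained one and 16 changed sign; of 460 that left out 1 library, 439 kept both, 14 lost a call, 1 gained one and 6 changed sign. The cause of a change was not tested. Axl in microglia (-0.017) was 0.081 with DESeq2, 0.084 with RLE, 0.035 without the filter, 0.0062 with the replicate block, 0.10 in inhibitor libraries, 0.53 on day 1 and 0.26 without cells high in immediate-early genes, and -0.086 to 0.13 leaving out a library. Mertk in monocytes was -0.039 without such cells. In non-immune cells, with free RNA subtracted, Elmo1 was 0.20 and Mertk 0.15; Gas6 was 0.059 in DMSO libraries, 0.072 on day 1, 0.019 without such cells and -0.34 to 0.047 leaving out a library; and Mfge8 was -0.0095 in inhibitor libraries. Mfge8 in choroid cells was 0.27 with library totals and -0.25 to 0.12 leaving out a library, and Pros1 between macrophages and microglia 0.12 with library totals.

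Genes called for LPS moved in macrophages from 4302 to 2637 in DMSO libraries; in monocytes from 3743 to 1958 in DMSO libraries, 2361 on day 1, 2491 on day 2 and 1777 without cells high in immediate-early genes; in non-immune cells from 2655 to 762 in inhibitor libraries, 1053 in DMSO libraries and 1567 on day 2; in choroid cells from 275 to 533 without the filter; and in fibroblasts from 498 to 308 with DESeq2 and 288 to 530 leaving out a library. For DMSO against inhibitors, the replicate block gave 88 genes in macrophages (56 without), 19 in monocytes (10) and 3 in non-immune cells (1), where DESeq2 gave 7 and leaving out a library 0 to 8. For the difference of the LPS change between DMSO and inhibitor libraries, DESeq2 gave 6, 17, 8 and 9 genes in macrophages, microglia, monocytes and non-immune cells (0, 4, 3 and 0 with edgeR, and 308 in macrophages and 242 in non-immune cells at an unadjusted p under 0.05), the replicate block 4, 26 and 14 in the first 3, and leaving out a library 0 to 2, 0 to 15, 0 to 28 and 0 to 7. Of the 7 genes, 3 were called in monocytes of DMSO libraries (5 in all), 1 in non-immune cells on day 2, without the filter and with the replicate block (0 otherwise), and 0 to 1 in macrophages for DMSO against inhibitors leaving out a library. Mean CPM moved by over 1 SD in 13 of 56 cases with free RNA subtracted and in 5 of 56 with 1 more marker required. Depth limits Timd4 outside macrophages and Mfge8 in LPS macrophages, where libraries held 1 to 3 UMIs.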

Other observations

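Saline dendritic cells carried Axl at 87.0, 38.8, 286 and 121 CPM over 4 libraries of 14 to 28 cells, a mean of 133 ± 107 CPM, and only 1 LPS library held at least 10 of them. Saline T-cells and NK cells had 16.3 to 41.3 CPM of Axl and LPS ones 0 to 10.9 CPM, with no overlap. Neutrophils had 161 to 377 CPM of Elmo1 with saline and 115 to 230.3 CPM with LPS, and these ranges overlapped.

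All 7 genes were lower in the free RNA of LPS libraries than in that of saline libraries, with no overlap. In saline libraries free RNA held 141.3 to 193 CPM of Pros1 and in LPS libraries 45.8 to 65.9 CPM, and Mertk went from 274 to 458 CPM to 125 to 167 CPM there. Free RNA made up an estimated 6.84% to 8.34% of the UMIs of saline microglia and 3.57% to 4.49% of those of LPS microglia, with no overlap. In macrophages it was 7.07% to 8.39% with saline and 5.46% to 7.60% with LPS. In monocytes it was 7.99% to 10.2% with saline and 5.45% to 7.68% with LPS.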
